A study of Mus musculus with 6 samples.

Results

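The glucocorticoid response genes described here are the 9 rows of the deposited table named Nr3c1, Nr3c2, Hsd11b1, Fkbp5, Tsc22d3, Zbtb16, Klf9, Sgk1 and Per1, out of 24972 gene rows. They were chosen by name: 2 steroid receptors, 1 enzyme that makes the active hormone and 6 genes known to be induced by it. RNA came from ventricular cardiomyocytes of 6 mice of the MX1gfp strain, a reporter of the interferon-stimulated gene Mx1. The 3 vehicle mice received an intraperitoneal injection of 100 microlitres of phosphate buffered saline. The 3 doxorubicin mice received 25 mg of doxorubicin, an anthracycline used against cancer, per kg body weight in the same volume. Hearts were taken 48 hours later. The labels state no age, sex or time of day of collection. All 6 mice carried the reporter, so no wild-type animals were compared.

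Glucocorticoids are adrenal steroids released during stress. They enter cells and bind the glucocorticoid receptor, which is held in a chaperone complex with Hsp90 and an immunophilin until the hormone arrives. The receptor then moves to the nucleus, binds DNA at a palindromic element and activates some genes while restraining others, among them inflammatory ones. In the heart, cardiomyocytes carry both the glucocorticoid and the mineralocorticoid receptor, and both can bind the same hormone.

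The target genes differed between the doxorubicin mice. Fkbp5, Tsc22d3, Zbtb16, Klf9, Per1, Sgk1 and Hsd11b1 were each higher in doxorubicin replicates 2 and 3 than in every vehicle library, at 2.04 to 16.0 times the vehicle mean. Of all genes tested, 31.6% were higher and 32.9% lower without overlap when doxorubicin replicate 1 was left out. In doxorubicin replicate 1 the same genes lay between 0.508 and 1.31 times the vehicle mean. Of the receptors, Nr3c1 overlapped between groups, and Nr3c2 was slightly lower in every doxorubicin library. With all 6 libraries, limma called 0 of the 9 genes at a Benjamini-Hochberg adjusted p under 0.05, as it called 0 of 12477 genes tested (0%). At an unadjusted p under 0.05, 5 of the 9 were higher and 0 lower, against 16.7% and 19.3% of all genes. Without doxorubicin replicate 1, 7 of the 9 were called higher and 0 lower, against 19.3% and 21.8% of all genes. For these 7 that library was the lowest of the doxorubicin ones, so leaving it out had to raise their differences. The p-values without it are therefore no separate support for a rise. The same limit holds for genes of the related lists below in which that library was the doxorubicin value closest to vehicle. Leaving out doxorubicin replicate 2 or 3 instead called 0 of the 9, and 1 and 0 of all 12477 genes.

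Promoter sequences are shown first for 4 target genes, because the element that the receptor binds can be looked for in them. The windows run from 250 bases before to 50 bases after an annotated start site, on GRCm38.p6 from RefSeq. The table held 15 windows for 7 of the 9 genes, with several starts for Sgk1, Per1 and Tsc22d3. For these 3 genes the window shown is one that holds a match, and not every window of the gene does for Sgk1 and Tsc22d3. Nr3c1 and Zbtb16 are named only. Each sequence is written 5′ to 3′ on the strand of the gene. Capitals mark the hexamer of the receptor's element, AGAACA or TGTTCT, the full palindrome, which is AGAACA and TGTTCT with any 3 bases between, the cyclic AMP pentamer TGACG or CGTCA, and the E-box CACGTG, which clock factors bind.
Sgk1, chr10:21993640-21993939, plus strand: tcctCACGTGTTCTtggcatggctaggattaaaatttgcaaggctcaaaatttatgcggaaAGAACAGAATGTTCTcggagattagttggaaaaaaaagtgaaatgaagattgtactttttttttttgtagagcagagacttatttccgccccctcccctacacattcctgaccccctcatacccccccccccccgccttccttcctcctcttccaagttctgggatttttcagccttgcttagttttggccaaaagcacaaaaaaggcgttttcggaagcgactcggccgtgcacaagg
Tsc22d3, chrX:140600473-140600772, minus strand: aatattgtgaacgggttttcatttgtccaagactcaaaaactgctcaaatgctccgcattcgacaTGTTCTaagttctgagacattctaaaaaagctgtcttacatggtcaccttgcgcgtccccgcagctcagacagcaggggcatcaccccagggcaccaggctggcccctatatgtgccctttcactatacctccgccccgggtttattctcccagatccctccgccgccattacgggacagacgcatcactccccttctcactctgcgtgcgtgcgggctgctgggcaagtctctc
Per1, chr11:69098699-69098998, plus strand: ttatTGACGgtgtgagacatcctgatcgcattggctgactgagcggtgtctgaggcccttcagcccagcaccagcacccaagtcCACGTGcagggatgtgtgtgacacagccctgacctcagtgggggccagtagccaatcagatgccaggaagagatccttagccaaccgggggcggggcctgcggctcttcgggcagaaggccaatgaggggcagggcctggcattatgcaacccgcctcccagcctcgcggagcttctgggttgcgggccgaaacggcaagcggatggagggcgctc
Fkbp5, chr17:28486100-28486399, minus strand: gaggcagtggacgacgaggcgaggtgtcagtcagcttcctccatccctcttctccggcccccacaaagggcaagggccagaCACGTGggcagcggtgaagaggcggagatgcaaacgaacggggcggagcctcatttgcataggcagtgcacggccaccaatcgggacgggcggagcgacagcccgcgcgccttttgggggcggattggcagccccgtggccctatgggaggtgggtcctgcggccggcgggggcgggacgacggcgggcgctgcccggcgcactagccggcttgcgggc

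The Sgk1 window held a complete palindrome, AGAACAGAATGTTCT, from -189 to -175 relative to the start site. Across 32851 promoter windows of 300 bases, searched on both strands, 3 windows (0.00913%) held this palindrome. Only exact matches inside the windows were searched, so elements with other letters or farther from the start were not looked for. The hexamer was found in 19.0% of windows. It lay inside the Sgk1 palindrome, once on each strand, in another place of the same window where it overlaps an E-box, in 2 other Sgk1 windows and in the Tsc22d3 window shown. The windows of Fkbp5, Per1, Klf9, Hsd11b1 and Nr3c2 held no hexamer. The TGACG pentamer, found in 20.8% of windows, lay in both Per1 windows, the Klf9 window, 1 Sgk1 window and 1 other Tsc22d3 window. The E-box, found in 7.15% of windows, lay in the Fkbp5, Per1 and Sgk1 windows shown. The full cyclic AMP element TGACGTCA (1.79% of windows) was in none of the 15 windows, and the GC box GGGCGG (35.7%) was in windows of Nr3c2, Sgk1, Per1, Fkbp5 and Tsc22d3. The palindrome contains the hexamer and the full cyclic AMP element contains the pentamer. DNA binding was not measured here, so a match describes letters and not occupancy.

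The libraries as a whole set the frame for these values. Values are the authors' normalized read counts, which summed to 7217949 to 7500386 in the vehicle and 5410780 to 6498373 in the doxorubicin libraries. The reads behind them, estimated from the spacing of low values, numbered about 7710000 to 11400000 and 3670000 to 6170000, so depth and treatment cannot be told apart. On the first principal component, with 68.9% of the variance, doxorubicin replicate 1 scored -16.2, between the vehicle libraries (-47.4 to -36.8) and doxorubicin replicates 2 and 3 (59.0 and 80.2). Vehicle replicate 3 and doxorubicin replicates 1 and 3 held Xist transcripts, and the other 3 held Y-linked ones. Separate titles name separate samples, and p-values measure the spread between them.

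The preparation was a settled cell suspension, not a sorted one, and its markers moved with the groups. The summed level of 6 cardiomyocyte markers was 470494 to 581608 in vehicle libraries, 436883 in doxorubicin replicate 1 and 137961 and 124637 in replicates 2 and 3. In 4 of the 6 the groups did not overlap, all lower, against 22.6% of genes lower without overlap. All 6 macrophage markers were higher without overlap (19.2% of genes), with sums of 1905 to 1995 in vehicle and 3109, 4880 and 12388.5 in doxorubicin replicates 1 to 3. Neutrophil markers summed to 9.88 to 20.8 in vehicle and to 50.8, 535 and 403 after doxorubicin. Their defining gene Ly6g was at 0 in all vehicle libraries and in doxorubicin replicate 1. It was at 1.20 and 1.48 normalized counts in replicates 2 and 3, about 1 read in each. Fibroblast markers summed to 6017 to 7915 in vehicle and to 8290, 22530 and 15996 after doxorubicin, with 2 of 6 higher without overlap (Pdgfra and Dcn); Dcn made up most of the sum in doxorubicin replicates 2 and 3. Endothelial markers summed to 13992 to 19658 in vehicle and to 25808 to 33894 after doxorubicin. Of the 6, 3 were higher without overlap (Pecam1, Tek and Fabp4), against 19.2% of genes. Fabp4 was the largest part of each doxorubicin sum. The groups overlapped for Cdh5, Emcn and Kdr. Kdr was at 3448 to 4340 in vehicle and at 5139, 2159 and 3401 in doxorubicin replicates 1 to 3. The lists for mural (6795 to 11966 and 8462 to 12216), lymphocyte (10.1 to 30.4 and 6.01 to 42.9), erythroid (1173 to 1999 and 250 to 8852) and atrial cells (87.0 to 167 and 133 to 566) had sums that overlapped between groups. Doxorubicin replicate 1 held the highest lymphocyte, erythroid and atrial sums, and the erythroid gene Hbb-bs was at 0 in all libraries. The part of cell makeup in the differences below was not tested, and fewer cells of a type cannot be told apart from less RNA per cell.

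**Figure D1:**
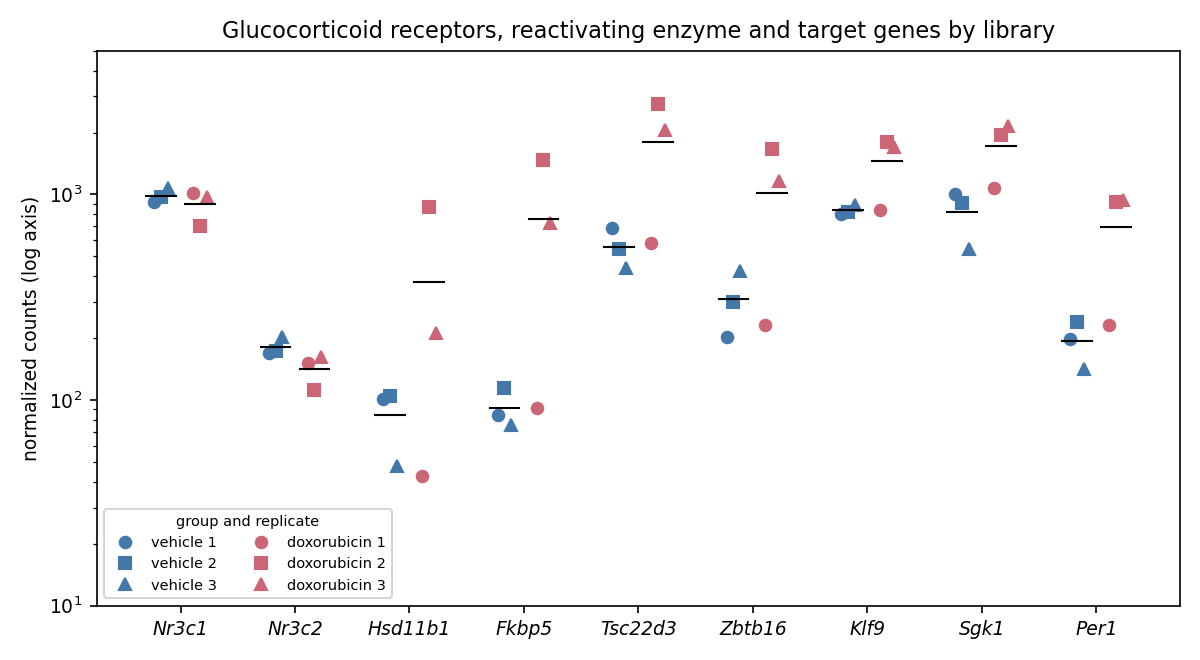
Normalized counts (log axis) of the 9 genes in each library, with vehicle in blue, doxorubicin in red, replicate 1 as a circle, 2 as a square and 3 as a triangle. Black lines are group means. Doxorubicin replicate 1 lies with or close to the vehicle libraries for the 7 genes from Hsd11b1 to Per1, while replicates 2 and 3 lie above all vehicle libraries, and the 2 receptors show no such gap.

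The receptors were examined first. Nr3c1 (chromosome 18, 39410545 to 39519421, GRCm38) encodes the glucocorticoid receptor. Its normalized counts were 918, 975 and 1070 in vehicle, against 1016, 700 and 970 in doxorubicin replicates 1 to 3. The groups overlapped, and only doxorubicin replicate 2 was below the vehicle range. The log2 difference, here always doxorubicin minus vehicle after adding 1 to each value, was -0.16 (95% interval -0.59 to 0.27, limma adjusted p 0.558). Bringing all libraries to equal totals, which moved the median of all genes to 0.29, turned it to 0.14, and leaving out doxorubicin replicate 2 gave 0.01.

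Nr3c2 (chromosome 8, 76898083 to 77245012) encodes the mineralocorticoid receptor, which binds glucocorticoids with high affinity. Vehicle libraries held 169, 173 and 202 normalized counts and doxorubicin libraries 151, 112 and 163. Every doxorubicin value was below every vehicle value, but by a small margin. With equal totals the log2 difference was -0.06 (limma adjusted p 0.828). As deposited it was -0.36 (95% interval -0.80 to 0.07, adjusted p 0.198). Without doxorubicin replicate 2 it was -0.20, and it was not called without doxorubicin replicate 1 either (adjusted p 0.129). An exon of this gene overlaps Gm10649, a noncoding RNA on the opposite strand. Since no source used here states whether strand was used in counting, reads of the pair cannot be told apart.

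Per kilobase of the longest coding transcript (GENCODE M21), Nr3c1 was the more abundant receptor in every library. The ratio of Nr3c1 to Nr3c2 was 5.00, 5.17 and 4.86 in vehicle and 6.18, 5.75 and 5.47 in doxorubicin replicates 1 to 3. The 3 doxorubicin ratios lay above the 3 vehicle ratios. An exact two-sided permutation test of 3 libraries against 3 cannot give a p below 0.1, so none was run.

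Hsd11b1 (chromosome 1, 193221640 to 193264045) encodes the enzyme that turns inactive 11-keto steroids back into active glucocorticoid inside cells. It had 101, 104 and 47.6 normalized counts in vehicle and 42.7, 865 and 212 in doxorubicin replicates 1 to 3. Doxorubicin replicate 1 was below all vehicle libraries, while replicates 2 and 3 stood at 10.3 and 2.52 times the vehicle mean. The log2 difference of 1.32 (SE 0.95, limma adjusted p 0.340) had the largest SE of the 9 genes, and without doxorubicin replicate 2 it was 0.26. Without doxorubicin replicate 1 it was 2.42 (SE 0.56, limma adjusted p 0.0112).

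Fkbp5 (chromosome 17, 28398753 to 28486149) differed most. It encodes FKBP51, an Hsp90 immunophilin that lowers the receptor's affinity for hormone and is itself induced by the receptor, which closes a feedback loop. It had 84.7, 114 and 75.2 normalized counts in vehicle, and 91.7, 1464 and 727 in doxorubicin replicates 1 to 3. Replicate 1 sat inside the vehicle range, and replicates 2 and 3 were at 16.0 and 7.96 times the vehicle mean. The log2 difference over all libraries was 2.35 (SE 0.89, limma adjusted p 0.109), which ranked 109 among 12477 genes by size of rise. Without doxorubicin replicate 1 it was 3.50 (SE 0.30, adjusted p 0.000245) and ranked 74, and without doxorubicin replicate 2 it was 1.51 (adjusted p 0.234).

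Tsc22d3 (chromosome X, 140539528 to 140600522) encodes GILZ, a leucine zipper protein that carries part of the anti-inflammatory action of glucocorticoids. Vehicle libraries held 688, 542 and 438 normalized counts, and doxorubicin libraries 578, 2760 and 2061. Again replicate 1 was inside the vehicle range, while replicates 2 and 3 were 4.97 and 3.71 times the vehicle mean. The difference was 1.44 on the log2 scale (SE 0.54, limma adjusted p 0.107). It was 2.12 without doxorubicin replicate 1 (SE 0.22, adjusted p 0.000440). With doxorubicin replicate 2 or 3 left out instead, it was 1.00 or 1.21 (limma adjusted p 0.232 and 0.272).

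Zbtb16 (chromosome 9, 48651797 to 48836225) encodes PLZF, a zinc finger repressor strongly induced by glucocorticoids in many tissues. It was uneven among the vehicle mice, at 203, 300.2 and 427 normalized counts, and stood at 232, 1666 and 1161 in doxorubicin replicates 1 to 3. Replicates 2 and 3 were 5.38 and 3.75 times the vehicle mean, and replicate 1 was inside the vehicle range at 0.748 times. The fitted log2 difference was 1.37 (SE 0.68, limma adjusted p 0.187) with all libraries and 2.23 (SE 0.30, adjusted p 0.00117) without doxorubicin replicate 1. Without doxorubicin replicate 2 it was 0.81 (limma adjusted p 0.419).

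Klf9 (chromosome 19, 23141226 to 23168129) encodes a Krüppel-like repressor induced directly by the receptor. Its vehicle values were tight, at 803, 820.0 and 893 normalized counts, and doxorubicin replicate 1 fell among them at 838. Replicates 2 and 3 held 1800.4 and 1710.3, close to each other and 2.15 and 2.04 times the vehicle mean. Among the 7 genes higher in these 2 libraries, Klf9 had the smallest multiple in each. Its log2 difference was 0.71 (SE 0.29, limma adjusted p 0.127), or 1.07 (SE 0.14, adjusted p 0.00110) without doxorubicin replicate 1. With doxorubicin replicate 2 or 3 left out instead, it was 0.51 or 0.55 (limma adjusted p 0.277 and 0.308).

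Sgk1 (chromosome 10, 21882184 to 21999903), whose window above held the palindrome, encodes a kinase that regulates ion channels and is induced through both receptors. It had 1006.5, 911 and 544 normalized counts in vehicle and 1071, 1947 and 2149 in doxorubicin replicates 1 to 3. It was the only one of the 9 genes in which every doxorubicin library exceeded every vehicle library, although replicate 1 did so by a narrow margin. The log2 difference was 1.05 (SE 0.33, limma adjusted p 0.0863). Without doxorubicin replicate 1 it was 1.37 (SE 0.26, adjusted p 0.00476). With doxorubicin replicate 2 or 3 left out instead, it was 0.93 or 0.86 (limma adjusted p 0.176 and 0.207).

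Per1 (chromosome 11, 69095108 to 69109965) encodes a repressor of the circadian clock that glucocorticoids induce acutely. Its values were 198, 240 and 142 normalized counts in vehicle and 231, 918 and 942 after doxorubicin. Replicates 2 and 3 were at 4.75 and 4.88 times the vehicle mean, and replicate 1 was inside the vehicle range. The log2 difference was 1.63 (SE 0.53, limma adjusted p 0.0878), and 2.29 (SE 0.22, adjusted p 0.000329) without doxorubicin replicate 1. With doxorubicin replicate 2 or 3 left out instead, it was 1.30 or 1.28 (limma adjusted p 0.185 and 0.225). Per1 also follows the time of day, which the labels do not state.

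**Figure D2:**
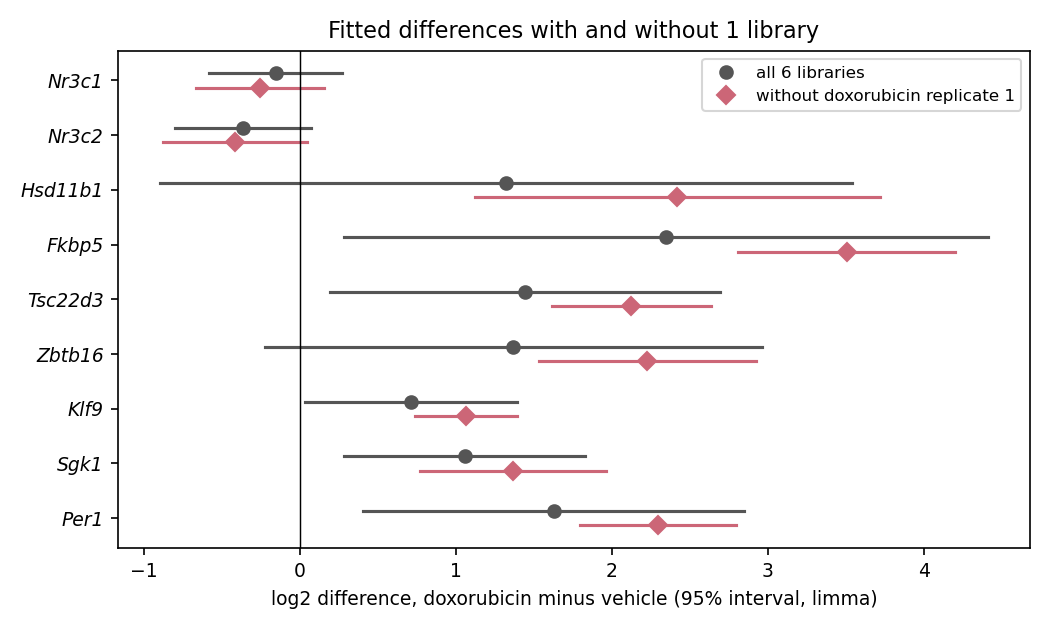
Log2 difference (doxorubicin minus vehicle) of the 9 genes with its 95% interval from limma, with all 6 libraries (grey circles) and without doxorubicin replicate 1 (red diamonds). For the 7 genes from Hsd11b1 to Per1 the difference is larger and its interval narrower without that library, as for Fkbp5, which goes from 2.35 to 3.50.

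Read together, 7 of the 9 genes had a positive difference, with a median of 1.32 over the 9, against 49.6% of all genes and a median of -0.0046. The 5 with an unadjusted p under 0.05 were Fkbp5, Tsc22d3, Klf9, Sgk1 and Per1. The groups did not overlap in 1 gene that was higher and 1 that was lower, against 19.2% and 22.6% of all genes. By library, the median difference of the 9 from the vehicle mean was 0.03, 2.27 and 1.44 in doxorubicin replicates 1 to 3. Doxorubicin replicate 1 was inside the vehicle range for 6 of the 9, against 36.0% of all genes. Doxorubicin replicate 2 exceeded replicate 3 for Hsd11b1, Fkbp5, Tsc22d3, Zbtb16 and Klf9, and replicate 3 was the higher for Sgk1 and Per1.

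Within the libraries holding Y-linked transcripts, 2 vehicle against doxorubicin replicate 2, the 7 differences ran from 1.02 for Sgk1 to 3.88 for Fkbp5. Within those holding Xist transcripts, 1 vehicle against doxorubicin replicates 1 and 3, they ran from 0.28 for Zbtb16 to 1.77 for Fkbp5. All 7 were positive in both classes, but the Xist values average doxorubicin replicates 1 and 3. Doxorubicin replicate 1 alone was below vehicle replicate 3 for Zbtb16 (232 against 427), Hsd11b1 (42.7 against 47.6) and Klf9 (838 against 893). It was above vehicle replicate 3 for Fkbp5, Tsc22d3, Sgk1 and Per1. These are values without a test, since each class has a group of 1 library.

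Levels per kilobase ordered the genes differently in the groups. In vehicle libraries Tsc22d3 was highest at 282 ± 63.6 normalized counts per kilobase (SD, n = 3), followed by Sgk1 at 265 ± 78.9, Klf9 at 187 ± 10.7 and Nr3c1 at 153 ± 11.9. Zbtb16 at 60.6 ± 21.9, Hsd11b1 at 51.9 ± 19.6, Per1 at 41.4 ± 10.5, Nr3c2 at 30.7 ± 3.09 and Fkbp5 at 23.7 ± 5.29 came after. Klf9 and Nr3c1, and Nr3c1 and Zbtb16, were separated by more than the range of the vehicle libraries. The other neighbours in this order overlapped. Fkbp5 was ninth, the lowest, in doxorubicin replicate 1 as well, and ranked 5 in replicate 2 and 6 in replicate 3, where Nr3c1 ranked 8 and 7 instead of 4. These levels use the longest transcript of each gene and would shift with another.

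Genes listed as receptor chaperones and cochaperones gave a different picture. Of 10 genes, 9 had a negative difference and 8 were lower without overlap (22.6% of all genes), with a median of -0.40. The list pools genes that do not all act on the receptor alike, so the shared sign gives no direction for its activity. None was called with all libraries (limma, 0 of 10), 4 were lower at an unadjusted p under 0.05 (19.3% of all genes), and 4 were called lower without doxorubicin replicate 1 (21.8%). The abundant Hsp70 gene Hspa8 had a difference of -0.34 and Hsp90ab1, the constitutive Hsp90, of -0.36 (adjusted p 0.387 and 0.339). Equal totals brought these to -0.04 and -0.06, and quantile normalization turned them to 0.12 and 0.10. Both genes have processed pseudogenes with which reads may be shared. Ptges3, the p23 cochaperone, had the highest difference, at 0.06.

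Fkbp4 had the lowest difference of the chaperones. It encodes FKBP52, the immunophilin that competes with FKBP51 for Hsp90 and favours the receptor's transport and hormone binding. It had 3854, 3971.5 and 4413 normalized counts in vehicle, and 2929, 897 and 864 in doxorubicin replicates 1 to 3. All doxorubicin values were lower than all vehicle values, and replicates 2 and 3 were far below. The log2 difference was -1.63 (SE 0.45, limma adjusted p 0.0859), or -2.21 (adjusted p 0.000152) without doxorubicin replicate 1. That library was the treated value closest to vehicle, so leaving it out had to enlarge the difference. The ratio of Fkbp4 to Fkbp5 counts, without regard to length, was 45.5, 34.7 and 58.7 in vehicle, 31.9 in doxorubicin replicate 1, and 0.613 and 1.19 in replicates 2 and 3. The 2 libraries with high Fkbp5 were the 2 with low Fkbp4, and they were also the 2 with the lowest cardiomyocyte marker sums.

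**Figure D3:**
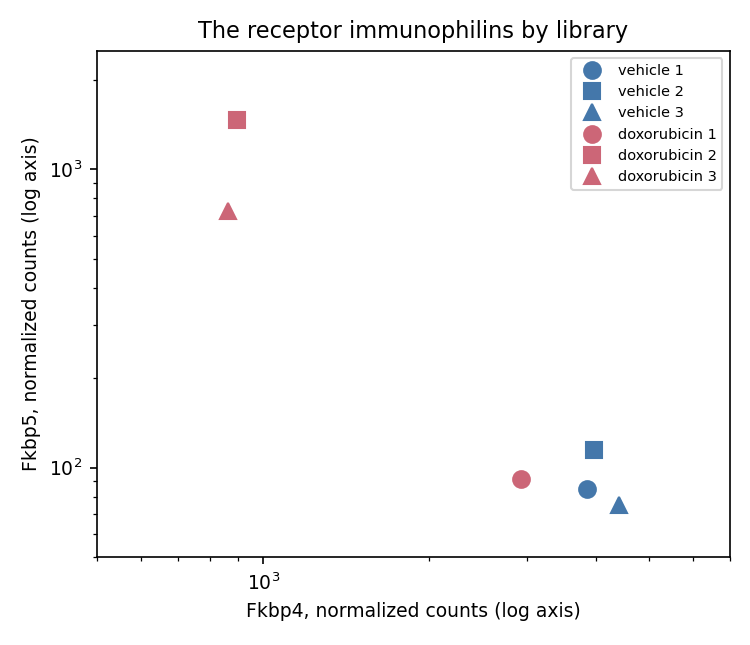
Fkbp5 against Fkbp4, both in normalized counts on log axes, with 1 point per library (vehicle blue, doxorubicin red; circle, square and triangle for replicates 1 to 3). Doxorubicin replicates 2 and 3 stand apart at upper left, with Fkbp5 at 1464 and 727 and Fkbp4 at 897 and 864, and doxorubicin replicate 1 lies near the vehicle libraries.

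Receptor coregulators had small differences. Of 11, 5 had a positive and 6 a negative difference, with a median of -0.06. None was called with all libraries (limma, 0 of 11), and 1 was higher at an unadjusted p under 0.05 (16.7% of all genes). Without doxorubicin replicate 1, 2 were called higher and 1 lower, against 19.3% and 21.8% of all genes. The coactivator Ncoa3 was the highest at 0.63 (adjusted p 0.0859), with 426 to 508 normalized counts in vehicle and 592, 706 and 826 in doxorubicin replicates 1 to 3. The corepressor Ncor1 and Smarca4, a chromatin remodelling ATPase, had the highest values of the list and differences of -0.14 and -0.21 (adjusted p 0.539 and 0.394). Equal totals turned these to 0.16 and 0.09. Med1, a Mediator subunit that contacts nuclear receptors, had the lowest at -0.36 (adjusted p 0.218), which was -0.06 with equal totals. Ncoa3 was called higher and Med1 lower without doxorubicin replicate 1 (limma adjusted p 0.00660 and 0.0205).

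Of the genes listed for the supply of hormone to the receptor, 4 of 6 could be tested. All 4 had a positive difference, with a median of 0.92, and 2 were higher without overlap, Abcb1a and Abcb1b (19.2% of all genes). The list pools genes that act on the hormone in opposite directions, so the shared sign gives no direction for its supply. Limma called 0 with all libraries, and 2 were higher at an unadjusted p under 0.05 (16.7% of all genes). It called 3 higher without doxorubicin replicate 1 (19.3% of all genes). Hsd11b2, the enzyme that inactivates glucocorticoid, was at 0 in 4 libraries and at 0.630 and 2.12 normalized counts in vehicle replicate 1 and doxorubicin replicate 1. It was not tested, and neither was Akr1c18. H6pd supplies the NADPH that Hsd11b1 uses. It had 321, 386 and 368 normalized counts in vehicle and 343, 909 and 644 after doxorubicin, the same order of libraries as Hsd11b1 among the treated mice. Its log2 difference was 0.71 (limma adjusted p 0.158), or 1.10 (adjusted p 0.00281) without doxorubicin replicate 1 and 0.40 (adjusted p 0.349) without replicate 2. Abcb1a, an efflux pump that exports some glucocorticoids and also doxorubicin, had 455 to 472 in vehicle and 702, 1044 and 1848 after doxorubicin, with no overlap. Abcb1a differed by 1.26 (limma adjusted p 0.0859, and 0.00153 without doxorubicin replicate 1). Its near copy Abcb1b may share reads with it. Srd5a1, a steroid reductase, was low and differed by 0.18 (adjusted p 0.812), or by -0.09 without doxorubicin replicate 3.

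Further genes known to be induced by glucocorticoids were mixed. Of 25, 18 had a positive and 7 a negative difference, with a median of 0.48, and 0 were called by limma with all libraries. At an unadjusted p under 0.05, 8 were higher and 3 lower (16.7% and 19.3% of all genes). Without doxorubicin replicate 1, 11 were called higher and 3 lower (19.3% and 21.8% of all genes). Their medians were 0.03, 1.15 and 0.29 in doxorubicin replicates 1 to 3, so replicate 2 stood higher than replicate 3 here too. Ddit4, an inhibitor of mTOR signalling, had the highest difference at 2.25 (adjusted p 0.0859; 0.000379 without doxorubicin replicate 1), with 122 to 275 normalized counts in vehicle and 290.5, 1737 and 1425 after doxorubicin. Pdk4, which shuts pyruvate out of oxidation, ranged from 2100.1 to 6254 in vehicle and was 5234, 14722 and 3064 after doxorubicin (0.80, adjusted p 0.365). The Pdk4 difference was 0.18 without doxorubicin replicate 2 and 1.31 without replicate 3. Glul, glutamine synthetase, differed by 0.48 (adjusted p 0.309), by 0.14 without doxorubicin replicate 2 and by 0.79 (adjusted p 0.0316) without replicate 1.

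Several well-known targets showed other patterns. Dusp1, a phosphatase that restrains MAP kinases, had 2204 to 2559 normalized counts in vehicle and 2430, 1846 and 1777.5 after doxorubicin, a difference of -0.23 (adjusted p 0.387) that equal totals turned to 0.07. Klf15, a metabolic regulator induced by the receptor in heart and muscle, had 289 to 469 in vehicle and 215, 731 and 391 after doxorubicin (0.12, adjusted p 0.854), a difference that was -0.32 without doxorubicin replicate 2. Trim63, which encodes the muscle ubiquitin ligase MuRF1, had the lowest difference of the list. It held 1540 to 1646 in vehicle and 1341, 593 and 532 in doxorubicin replicates 1 to 3, without overlap (-1.07, adjusted p 0.0863; -1.49 and adjusted p 0.000329 without doxorubicin replicate 1). Trim63 is made by muscle cells, and doxorubicin replicates 2 and 3 were also the lowest in the cardiomyocyte marker sum; the part of that in the difference was not tested.

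Inflammatory transcripts that the receptor is known to hold down had positive differences, but none was called with all libraries (limma, 0 of 11). Of 12, 11 were tested, with a median difference of 1.45. The groups did not overlap in 7, all higher (19.2% of all genes), and overlapped in 4 (Cxcl1, Ptgs2, Sele and Tnf). At an unadjusted p under 0.05, 6 were higher (16.7% of all genes), and 9 were called higher without doxorubicin replicate 1 (19.3%), among them Icam1, Vcam1 and Il1b (adjusted p 0.000282, 0.000730 and 0.0454). Icam1, an adhesion molecule for leukocytes, had 125 to 182 normalized counts in vehicle and 227, 956 and 684 after doxorubicin (1.78, adjusted p 0.0859). Vcam1, another adhesion molecule, had 135 to 147 and then 186, 469 and 339 (1.11, adjusted p 0.0859). Il1b, an inflammatory cytokine, was at 9.70 to 23.0 in vehicle and at 33.5, 30.1 and 979 after doxorubicin. Its difference of 2.75 (adjusted p 0.151) was 1.11 without doxorubicin replicate 3, the library with the highest macrophage marker sum. Sele differed by 0.56 (adjusted p 0.643), and without doxorubicin replicate 2 by -0.41.

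**Figure D4:**
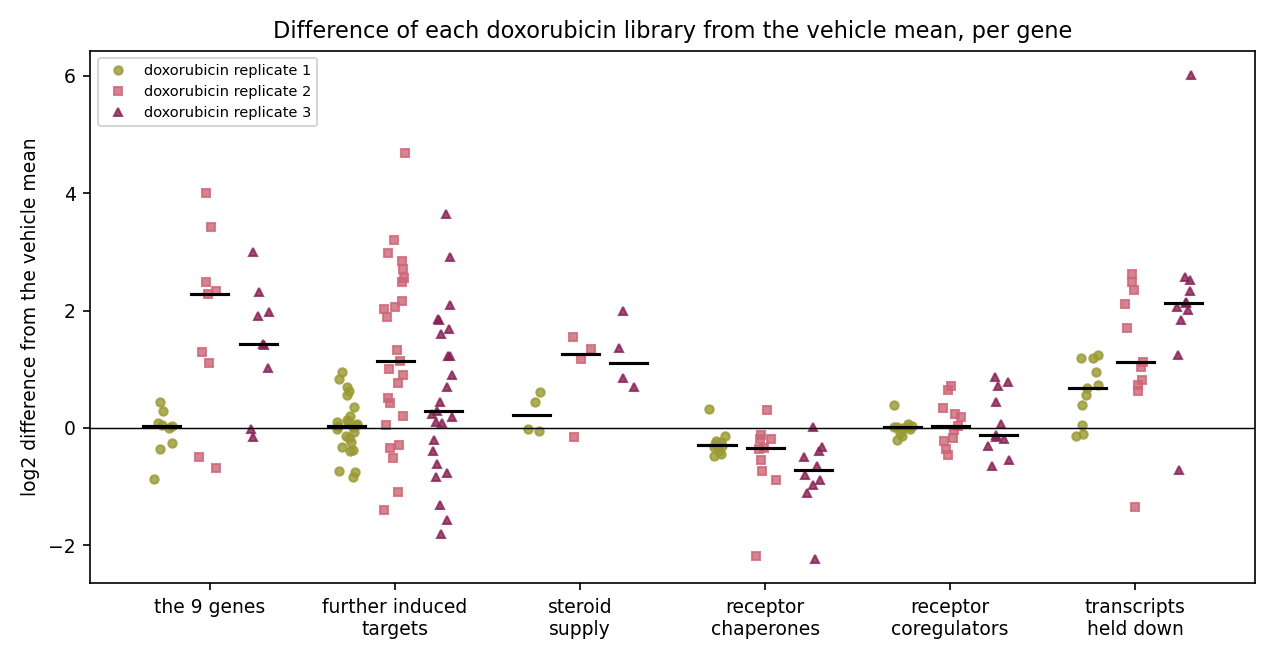
Log2 difference of each gene from the vehicle mean in doxorubicin replicate 1 (olive circles), 2 (pink squares) and 3 (purple triangles), for the 9 genes and 5 related lists. Black lines are medians, which for the 9 genes are 0.03, 2.27 and 1.44, for further induced targets 0.03, 1.15 and 0.29, and for transcripts the receptor holds down 0.67, 1.12 and 2.12.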

How the data were processed

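RNA-seq values of 6 libraries, 3 per group by their titles, were used. Per the submitters' processing notes and the labels, STAR 2.6.1a aligned the reads to mm10 with RefSeq genes, in BaseSpace RNAseq Alignment 2.0.2, followed by RNA-seq Differential Expression 1.0.1; Salmon is also named. The values that the authors deposited are a signal, normalized read counts per gene, and no source used here states how they were normalized, whether strand was used, or any filter. Taking the most common low value as 1 read, 79.9% to 92.5% of values below 8.5 reads came out whole to within 0.1. Whole reads were thus recovered for most of these low values but not for all, and no count test was used.

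From these values, log2(value + 1) was tested with limma 3.58.1 in R 4.3.3 for 12477 genes with a mean of at least 10, with a prior variance that follows the mean. P-values are two-sided, with Benjamini-Hochberg adjustment over all genes tested and a threshold of 0.05. All 9 genes passed the filter. The log2(value + 1) scale understates changes of low genes. The model was tested on data simulated with the vehicle spread in both groups. That test does not cover the wider spread of the 9 genes in the doxorubicin libraries. Groups overlap unless all values of 1 lie above all of the other. Within each related list, the named genes are the 2 with the highest mean and those with the highest and the lowest difference, besides Hsd11b2, H6pd, Klf15, Dusp1 and Fkbp4; other genes named are markers, list members counted or not tested, or near copies, and some were chosen after their values were seen. For Fkbp5, Tsc22d3 and Nr3c1 the 3 genes with a mean of at least 100 and the highest Pearson correlation are named. The 9 genes, the lists and the alternatives were chosen with earlier results of these data known. In the coregulator list, 1 further gene is not reported here. Coordinates are RefSeq's on GRCm38.p6, the assembly of mm10, and count from 1. Python 3.11.15 and matplotlib 3.10.9 drew the figures.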

Additional observations from a re-analysis of the deposited data

How the results depend on the processing

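The number of calls turned on 1 library. Using the 6 libraries with equal weights, limma called 0 genes, 0 of the 9 and 0 of the related lists under each other pseudocount, filter, scaling, moderation and covariate tried. Leaving out 1 library at a time gave 0 to 5127 genes, 0 to 7 of the 9 and 0 to 33 of the related lists. The highest of each came without doxorubicin replicate 1, and doxorubicin replicate 2 left out gave 1 gene. Library weights, which set doxorubicin replicate 1 to 0.277, gave 4272 genes, 7 of the 9 and 28 of the lists, and a threshold of 0.10 gave 3022, 2 (Sgk1 and Per1) and 17. The differences of the other 8 of the 9 genes kept their sign in all settings, from 1.51 to 3.50 for Fkbp5 and from 0.26 to 2.42 for Hsd11b1 across left-out libraries. Equal totals turned Nr3c1 to 0.14, Ncor1 to 0.16, Smarca4 to 0.089 and Dusp1 to 0.068. Quantile normalization turned Hspa8 to 0.12, Hsp90ab1 to 0.10, Ncor1 to 0.046 and Srd5a1 to -0.15. Left-out libraries moved Nr3c1 from -0.26 to 0.011, Ptges3 from -0.062 to 0.16, Srd5a1 from -0.0898 to 0.34, Sele from -0.41 to 1.19 and Klf15 from -0.32 to 0.56; the cause was not tested. Same-numbered vehicle and doxorubicin libraries deviated from their group means with correlations of -0.13, 0.03 and -0.09, and no vehicle library correlated best with its own number. They share only a number, and with the replicate block 0 genes and 0 of the 9 were called. The doxorubicin libraries were the shallower ones; the part of depth in these differences was not tested.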

Other observations

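The genes whose log2 values followed Fkbp5 most closely over the 6 libraries were Cltb, a clathrin light chain (Pearson r 0.998), Gas5, a noncoding RNA (0.997), and Aldh1a1, a retinaldehyde dehydrogenase (0.997). Aldh1a1 had 95.3, 105 and 76.3 normalized counts in vehicle and 81.8, 730.5 and 477 in doxorubicin replicates 1 to 3. Gas5 had 114, 119 and 110 in vehicle and 120, 264 and 207 after doxorubicin, while Cltb, though closest in pattern, went only from 782, 814 and 776 to 790, 969 and 923. For Tsc22d3 the closest were Sbno2 (0.9999), C3 (0.997) and Serping1 (0.996). C3, the central complement protein, had 1987, 1470 and 1152 in vehicle and 1914, 11143 and 8376 after doxorubicin, and Serping1, the inhibitor of the first complement component, had 802, 673 and 614 and then 746, 3500 and 2397. For Nr3c1 they were Gm14326 (0.989), Epha4 (0.989) and Hectd4 (0.982), each with its lowest value in doxorubicin replicate 2. These correlations are over 6 libraries of both groups, which differ in treatment and depth, and were picked as the highest of many.

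Other members of the induced list behaved in different ways. Anxa1, which encodes annexin A1, was higher without overlap, with 148.5, 125 and 115 normalized counts in vehicle and 231, 725 and 556 in doxorubicin replicates 1 to 3. The metallothionein gene Mt2 had 54.8, 140 and 53.2 and then 70.3, 1935 and 270, so that doxorubicin replicate 2 stood far above replicate 3. Per2, the other clock repressor in the list, had 44.2, 56.2 and 49.0 and then 27.4, 297 and 634. Of the 25 genes in the list, 4 were higher and 3 lower without overlap, against 19.2% and 22.6% of all genes. The 3 lower ones were Lpin1, Ptgds and Trim63. Lpin1 stood at 485 to 1513 after doxorubicin against 1573 to 1916 in vehicle, and Ptgds at 724 to 1264 against 1564 to 2222.5. Anxa1, Mt2, Per2, Lpin1 and Ptgds were chosen after their values were seen.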
